A study of Caenorhabditis elegans with 12 samples.

Results

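The miRNAs of high-glucose-induced worms were compared with and without naringin, a citrus flavanone glycoside. The comparison took the 3 Nar + Glu libraries and the 3 DMSO + Glu libraries, 6 of the 12 small RNA libraries of the series, and every mature miRNA of the count table. The table named 263 mature miRNAs, and 219 of them had enough reads to be tested. All 6 libraries came from whole wild type *Caenorhabditis elegans* of the N2 strain, placed on the plates as L4 larvae and cultured for 5 d at 20 °C on OP50 bacteria, with the progeny removed each day. Nar + Glu worms received 25 μM naringin with 2% glucose in 0.1% DMSO, and DMSO + Glu worms received 2% glucose in 0.1% DMSO, so that glucose and vehicle were common to both groups. The other 6 libraries were 3 of worms on glucose alone (Glu) and 3 of worms without glucose (Control). No label says whether the replicates were separate cultures, and the p-values therefore measure only the spread between these libraries, which may be technical.

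A miRNA is cut from a hairpin precursor, and the hairpin yields a short duplex of a 5p and a 3p arm. One arm is usually kept by an Argonaute protein and guides it to target mRNAs, while the passenger arm is mostly degraded. In the results below, passenger arm means only the arm with fewer reads summed over the 12 libraries, and commoner arm the other. Pairing rests chiefly on the seed, bases 2 to 8 of the miRNA, so members of a seed family can share targets even where they lie on different chromosomes. Hairpins that lie close together on a strand can be cut from a single transcript. In *C. elegans*, the lin-4 and let-7 families time larval development, the miR-35 family is required in the embryo, and miR-1 acts in muscle.

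The 6 libraries held between 2640879 and 3849726 miRNA reads, and each of them detected 262 or 263 of the miRNAs. Of the 219 miRNAs tested, 47 (21.5%) were called, at a Benjamini-Hochberg adjusted p under 0.05 from edgeR's quasi-likelihood model with TMM scaling, and 72 (32.9%) had an unadjusted p under 0.05. In Nar + Glu worms, 21 of them (9.59%) were higher and 26 (11.9%) were lower. The log2 fold changes of the higher miRNAs ran from 0.35 to 1.19, and those of the lower miRNAs from -0.80 to -0.34. Under the criteria of the study's methods, a minimum fold change with an unadjusted p under 0.05, 29 miRNAs (13.2%) were called, 19 higher and 10 lower. The 2 groups of libraries did not overlap for 81 miRNAs (37%), among them 46 of the 47 called ones. The exception was miR-4813-5p.

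The balance between higher and lower calls moved with the scaling of the libraries. miR-1-3p, the most abundant miRNA, took 34.5%, 34.6% and 28.9% of the reads in Nar + Glu worms, against 38.5%, 40.8% and 39.9% in DMSO + Glu worms. Its share was lower in all 3 Nar + Glu libraries, and the exact permutation test over libraries gave p = 0.1, the smallest p that 3 against 3 allows. TMM scaling, which assumes that most miRNAs do not change, put the median log2 fold change at -0.06. Scaling by total reads alone put it at 0.37, a shift of 0.44, and gave 89 higher and 2 lower calls. All 21 higher calls were kept there. Of the 26 lower calls, 18 stayed below 0, and only miR-1-3p (log2 fold change -0.28, adjusted p = 0.00872 in edgeR) and miR-237-5p (-0.38, adjusted p = 0.035) were still called. Levels below are CPM, reads scaled to a common library size, after TMM scaling over the 6 libraries, and a lower level is stated relative to that scaling. For families and clusters, the log2 fold changes and tests of sums took TMM factors estimated anew on the summed counts. These changes are therefore not on quite the same scale as the single miRNAs or the levels.

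**Figure D1:**
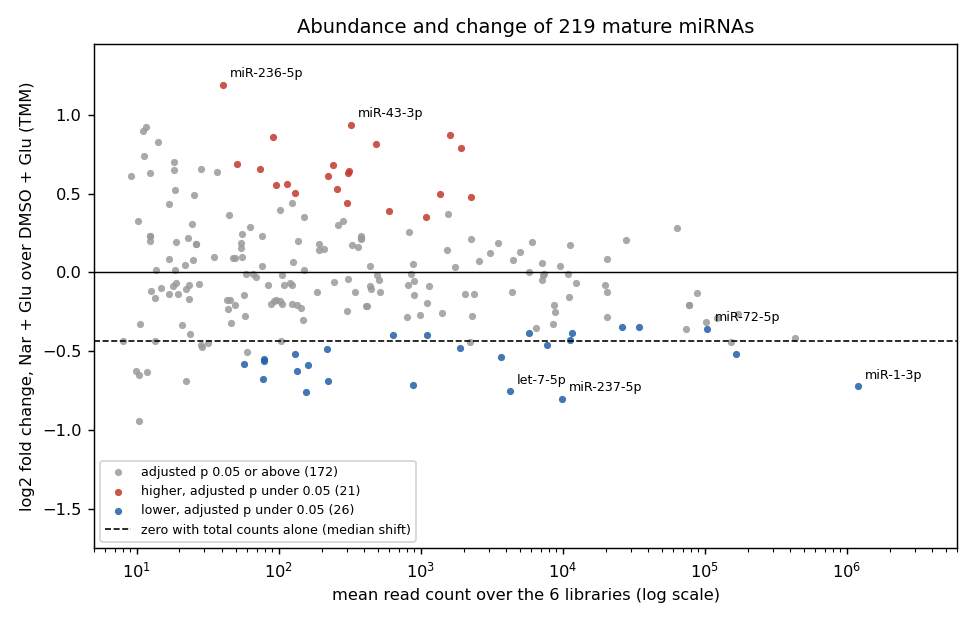
Mean read count over the 6 libraries (x axis, log scale) against the log2 fold change of Nar + Glu over DMSO + Glu with TMM scaling (y axis) for the 219 tested miRNAs, in red where higher (21), blue where lower (26) and grey otherwise. The dashed line lies 0.44 below 0, where the zero of total-count scaling falls: 18 of the 26 lower calls stay below 0 with total counts, and miR-1-3p and miR-237-5p are the only lower calls that are also called with total counts.

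Of the 47 calls, 12 were kept with any 1 of the 6 libraries left out, 9 of them higher and 3 lower in Nar + Glu worms. The higher ones were miR-236-5p, miR-43-3p, miR-52-3p, miR-244-5p, miR-1820-5p, miR-231-3p, miR-49-5p, miR-4813-3p and miR-54-5p. The lower ones were miR-237-5p, let-7-5p and miR-1-3p. miR-236-5p had the largest log2 fold change, 1.19 ± 0.23 (SE), at 19.0, 17.4 and 14.1 CPM in Nar + Glu worms, against 9.42, 6.96 and 5.78 CPM in DMSO + Glu worms. miR-54-5p changed least of the 12, by 0.48 ± 0.11, with 828, 811 and 785 CPM in Nar + Glu worms, against 568, 581 and 589 CPM in DMSO + Glu worms. miR-231-3p stood at 82.3, 90.2 and 98.0 CPM in Nar + Glu worms, against 66.3, 51.2 and 51.0 CPM in DMSO + Glu worms. None of these ranges overlapped.

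miR-244-5p had 172, 214 and 177 CPM in Nar + Glu worms, against 107, 115 and 98.0 CPM in DMSO + Glu worms. miR-1820-5p had 697, 814 and 707 CPM in Nar + Glu worms, against 316, 457 and 511 CPM in DMSO + Glu worms, and miR-49-5p had 121, 116 and 110 CPM, against 66.3, 81.9 and 74.5 CPM. Among the larger changes outside the 12, miR-251 (0.69) lost its call without Nar + Glu replicate 1 or DMSO + Glu replicate 2 or 3 (adjusted p up to 0.108), and miR-57-3p (0.66) without DMSO + Glu replicate 1 (adjusted p = 0.0637).

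**Figure D2:**
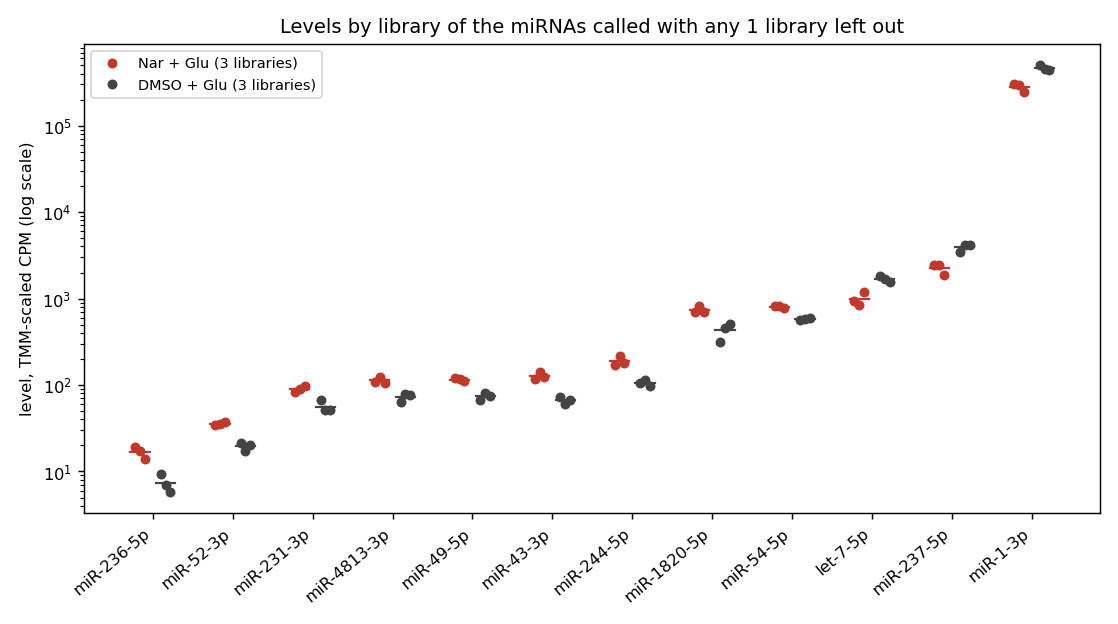
Level in each library (y axis, TMM-scaled CPM, log scale) of the 12 miRNAs whose call held with any 1 library left out, with Nar + Glu points in red left of DMSO + Glu points in grey and a bar at each group mean of 3 libraries. Of the 12, 9 are higher in every Nar + Glu library, and let-7-5p, miR-237-5p and miR-1-3p are lower in every one relative to TMM scaling, with total counts alone keeping all 3 below 0.

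The 12-library scale set these levels beside the worms that had no vehicle. On that scale miR-43-3p lay between 112 and 130 CPM in Nar + Glu worms, against 54.2 to 63.0 CPM in DMSO + Glu, 38.8 to 83.8 CPM in Glu and 44.5 to 53.4 CPM in Control worms. miR-52-3p lay between 32.5 and 33.8 CPM in Nar + Glu worms, and between 11.2 and 18.7 CPM over the other 3 groups. let-7-5p lay between 767 and 1083 CPM in Nar + Glu worms, against 1389 to 1566 CPM in DMSO + Glu, 1678 to 2356 CPM in Glu and 1810 to 2430 CPM in Control worms. Nar + Glu worms thus stood outside the range of every other group for these 3 miRNAs. This was not so for all of the 12: miR-236-5p lay between 12.7 and 18.6 CPM in Nar + Glu worms and between 8.06 and 13.8 CPM in Control worms, so that these ranges overlapped, while DMSO + Glu worms had 5.21 to 8.13 CPM.

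Of the 6 developmental timing miRNAs, 5 were called lower in Nar + Glu worms relative to TMM scaling, where 26 of all 219 (11.9%) were, and miR-84-5p was not called. The median log2 fold change of the 6 was -0.60, beside -0.06 over all tested miRNAs. With total counts alone the median of the 6 was -0.16, beside 0.37 over all tested miRNAs. There miR-48-5p and miR-84-5p turned to the higher side, and only miR-237-5p was still called. The lin-4 family, whose founding member represses lin-14 during larval development, was lower as a sum, at 2918, 2951 and 2322 CPM in Nar + Glu worms, against 4089, 4888 and 4786 CPM in DMSO + Glu worms (log2 fold change -0.70 ± 0.13, adjusted p = 2.45e-04 in edgeR over 177 families and single miRNAs, of which 18.6% were called). The sum stayed lower with total counts alone, at -0.32, without passing the test (adjusted p = 0.0645). miR-237-5p supplied 84.0% of that sum and had 2434, 2444 and 1850 CPM in Nar + Glu worms, against 3452, 4154 and 4119 CPM in DMSO + Glu worms. lin-4-5p itself had 484, 507 and 473 CPM in Nar + Glu worms, against 637, 734 and 667 CPM in DMSO + Glu worms (-0.48, adjusted p = 0.0112), and its call was lost without either of Nar + Glu replicates 1 and 2 or DMSO + Glu replicates 2 and 3 (adjusted p up to 0.140).

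Within the let-7 family, the members moved by unequal amounts. let-7-5p, which represses lin-41 at the larva to adult switch, had 931, 842 and 1201 CPM in Nar + Glu worms, against 1815, 1661 and 1542 CPM in DMSO + Glu worms (log2 fold change -0.75 ± 0.14, adjusted p = 0.00215 in edgeR). miR-241-5p had 204, 163 and 265 CPM in Nar + Glu worms, against 343, 332 and 362 CPM in DMSO + Glu worms (-0.71, adjusted p = 0.0048). Both were low in each Nar + Glu library, and both stayed below 0 with total counts alone, without a call. miR-48-5p, which made up 71.4% of the family's reads, changed by -0.34, and this call was lost with any 1 library left out (adjusted p up to 0.327) and turned to 0.09 with total counts alone. miR-84-5p (-0.21) and the rare miR-795-5p (-0.18) overlapped between groups and did not pass. The sum of the family therefore followed miR-48-5p, at 13565, 12431 and 13671 CPM in Nar + Glu worms, against 17459, 16411 and 17095 CPM in DMSO + Glu worms, and missed the threshold (-0.31, adjusted p = 0.0619), turning to 0.08 with total counts alone. The passenger arm miR-84-3p had 34.7, 31.9 and 33 CPM in Nar + Glu worms, against 51.1, 51.9 and 50.7 CPM in DMSO + Glu worms (-0.63, adjusted p = 0.0048, and -0.19 with total counts alone), a call lost without Nar + Glu replicate 2 (adjusted p = 0.051). The call of miR-241-5p was lost without DMSO + Glu replicate 3 (adjusted p = 0.0532).

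Whether a member departed from its own family was read from the ratio of its reads to the summed reads of the other members in the same library, which does not move with the scaling. edgeR called 10 of 50 such ratios (20%). 3 of them belonged to the miR-72 family, and these were the only 3 kept with any 1 library left out. miR-72-5p, the bulk of this family, had 28646, 27913 and 28661 CPM in Nar + Glu worms, against 38877, 35423 and 34843 CPM in DMSO + Glu worms. miR-74-3p had 383, 366 and 371 CPM in Nar + Glu worms, against 316, 269 and 293 CPM in DMSO + Glu worms, and miR-73-3p had 3610, 3449 and 3847 CPM, against 3317, 3331 and 3022 CPM. The groups did not overlap for any of the 3, and the direction differed between miR-72-5p and the other members. In log2 units, the ratio of miR-74-3p to the rest was higher by 0.66 ± 0.09 in Nar + Glu worms (adjusted p = 0.00125), that of miR-73-3p by 0.52 ± 0.09 (adjusted p = 0.00303), and that of miR-72-5p was lower by the counterpart, -0.54 ± 0.09 (adjusted p = 0.00273). These 3 ratios are not independent, since each member is also in the ratios of the others. As single miRNAs, the calls of miR-72-5p (-0.36) and miR-74-3p (0.35) were lost with some libraries left out: the call of miR-72-5p was lost with any 1 left out (adjusted p up to 0.258), that of miR-74-3p without Nar + Glu replicate 1 or any DMSO + Glu library (adjusted p up to 0.138), and miR-72-5p turned to 0.08 with total counts alone.

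In the miR-2 family, miR-43-3p and miR-2-3p were called higher and the other tested members were not called. miR-43-3p had 116, 143 and 124 CPM in Nar + Glu worms, against 73.0, 59.8 and 67.3 CPM in DMSO + Glu worms (log2 fold change 0.94 ± 0.14, adjusted p = 8.84e-04 in edgeR). miR-2-3p had 437, 485 and 560 CPM in Nar + Glu worms, against 371, 330 and 346 CPM in DMSO + Glu worms (0.50 ± 0.13, adjusted p = 0.014), and its call was lost without DMSO + Glu replicate 3 (adjusted p = 0.0531). miR-250-3p had 339, 348 and 530 CPM in Nar + Glu worms, against 579, 371 and 503 CPM in DMSO + Glu worms, and miR-797-5p overlapped between groups too. Relative to the rest of the family, the ratio of miR-43-3p was higher by 0.84 ± 0.20 (adjusted p = 0.0171), that of miR-2-3p was higher by 0.55 ± 0.17 (adjusted p = 0.0455), and that of miR-250-3p was lower, by -0.81 ± 0.20 (adjusted p = 0.0203). These 3 ratios lost their calls without Nar + Glu replicate 1 or 2 or DMSO + Glu replicate 1 or 3 (adjusted p up to 0.0814 for miR-43-3p, 0.225 for miR-2-3p and 0.0839 for miR-250-3p). As a sum the family did not pass (0.23, adjusted p = 0.272).

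**Figure D3:**
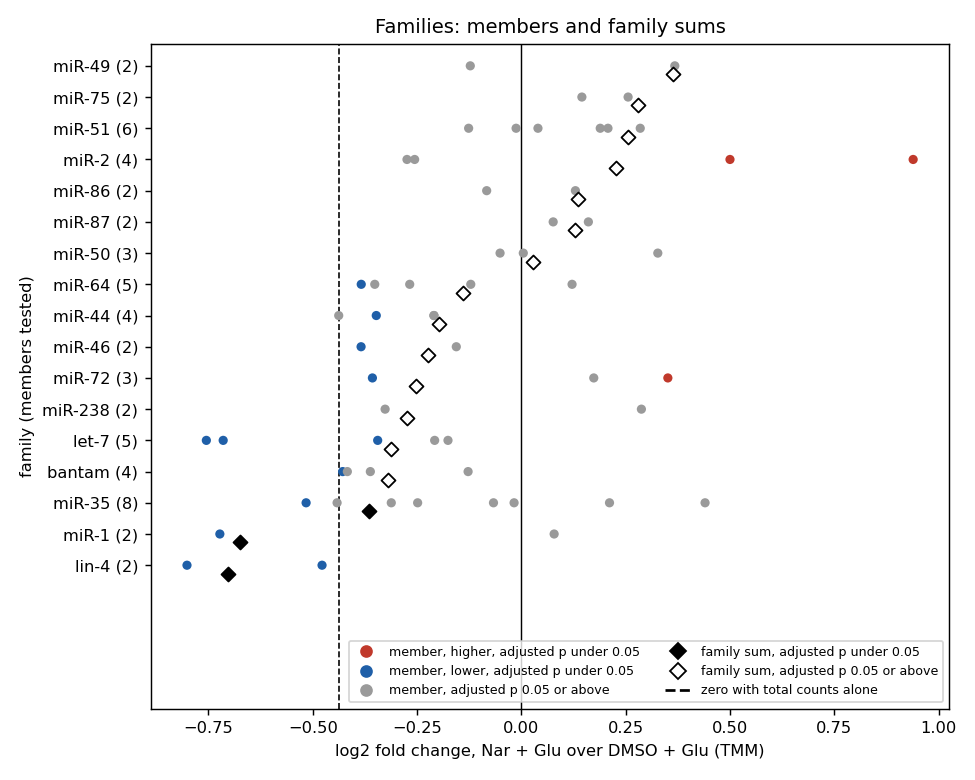
Log2 fold change of Nar + Glu over DMSO + Glu with TMM scaling (x axis) of each tested member (circles) and of the summed family (diamonds, filled where called) in the 17 families with several members. Only the lin-4, miR-1 and miR-35 sums are called, all lower, and the miR-35 sum turned to 0.04 with total counts alone. The dashed line marks the zero of total-count scaling for single miRNAs. Members of the miR-2, miR-72 and miR-35 families lie on both sides of 0. The sums have TMM factors of their own, so circles and diamonds are not on quite the same scale.

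The miR-35 family, which is made in the germline and embryo, was lower as a sum, at 116481, 108641 and 137737 CPM in Nar + Glu worms, against 195062, 135535 and 153078 CPM in DMSO + Glu worms. The groups overlapped, the change was -0.37 ± 0.12 (adjusted p = 0.0367 in edgeR), and it turned to 0.04 with total counts alone. The call was lost without any 1 of Nar + Glu replicates 1 and 2 and DMSO + Glu replicates 1 and 3 (adjusted p up to 0.224). Of its 8 members only miR-35-3p was called, with 42248, 39735 and 45807 CPM in Nar + Glu worms, against 71681, 52631 and 58410 CPM in DMSO + Glu worms (-0.52, adjusted p = 0.0141), and this was lost without Nar + Glu replicate 1 or 2 or DMSO + Glu replicate 1 (adjusted p up to 0.114). The abundant miR-37-3p did not pass (-0.44, adjusted p = 0.0606, and 0.01 with total counts alone). The scarce members had values above 0: miR-41-3p had 41.7, 52.8 and 34.3 CPM in Nar + Glu worms, against 38.7, 29.1 and 27.6 CPM in DMSO + Glu worms, and miR-42-3p had 747, 734 and 743 CPM, against 610, 609 and 702 CPM. Neither passed on its own. Their ratios to the rest of the family were higher in Nar + Glu worms by 0.85 ± 0.23 for miR-41-3p (adjusted p = 0.0299) and by 0.62 ± 0.17 for miR-42-3p (adjusted p = 0.0326). Both of these calls were lost in limma on log2 ratios (adjusted p = 0.0752 for miR-41-3p and 0.0599 for miR-42-3p) and without Nar + Glu replicate 1 or 2 or DMSO + Glu replicate 1, that of miR-41-3p also without DMSO + Glu replicate 2 or 3 (adjusted p up to 0.0826 for miR-41-3p and 0.102 for miR-42-3p).

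The bantam family, named after a growth regulator of *Drosophila*, is led by miR-58a-3p, which supplied 71.3% of its reads. miR-58a-3p had 108002, 109290 and 128830 CPM in Nar + Glu worms, against 194474, 129674 and 137991 CPM in DMSO + Glu worms, and DMSO + Glu replicate 1 stood above the other 5 libraries. It did not pass the test (-0.42, adjusted p = 0.0642), nor did the family sum (-0.32, adjusted p = 0.0536), and both turned to the higher side with total counts alone. miR-81-3p was the only called member, at 2959, 3358 and 2625 CPM in Nar + Glu worms, against 4022, 4411 and 3599 CPM in DMSO + Glu worms (-0.43, adjusted p = 0.0306). That call was lost with any 1 library left out (adjusted p up to 0.217), and the change was 0.01 with total counts alone. mir-81 and mir-82 lie within the same gene, gid-2, on opposite strands, and the passenger arms miR-81-5p (-0.68) and miR-82-5p (-0.48) were called lower as well, both staying below 0 with total counts alone (-0.23 and -0.05). These calls were lost without Nar + Glu replicate 1 or any DMSO + Glu library for miR-81-5p (adjusted p up to 0.144) and with any 1 library left out for miR-82-5p (adjusted p up to 0.198).

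Of the other families with several members, the miR-51 family, which is broadly expressed, had no called member among 6. Its sum was 38182, 36496 and 40953 CPM in Nar + Glu worms, against 35450, 32767 and 31833 CPM in DMSO + Glu worms, which did not overlap and did not pass (0.26, adjusted p = 0.120). The ratio of miR-56-3p to the rest of that family was lower by -0.34 ± 0.10 (adjusted p = 0.0363), a call that limma did not make (adjusted p = 0.0753) and that was lost without Nar + Glu replicate 1 or 2 or DMSO + Glu replicate 1 or 3 (adjusted p up to 0.142). The same was seen for let-7-5p against the rest of the let-7 family, -0.44 ± 0.13 (adjusted p = 0.0405 in edgeR and 0.0705 in limma), which held only without Nar + Glu replicate 3 (adjusted p up to 0.142 with another library left out). miR-61-3p of the miR-44 family, miR-65-5p of the miR-64 family and miR-47-3p of the miR-46 family were each called lower by TMM, at -0.35, -0.38 and -0.38. All 3 turned to the higher side with total counts alone, at 0.09, 0.06 and 0.05. The calls of miR-61-3p and miR-47-3p were lost with any 1 library left out (adjusted p up to 0.237 each), and that of miR-65-5p with any library but Nar + Glu replicate 3 (adjusted p up to 0.258). miR-44-3p and miR-45-3p had equal counts in all 12 libraries, so their reads cannot be told apart and were counted once in sums. Of the 17 families with several members, as grouped here by name and not by sequence, only the sums of lin-4, miR-35 and miR-1 passed, the last being nearly all miR-1-3p.

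**Figure D4:**
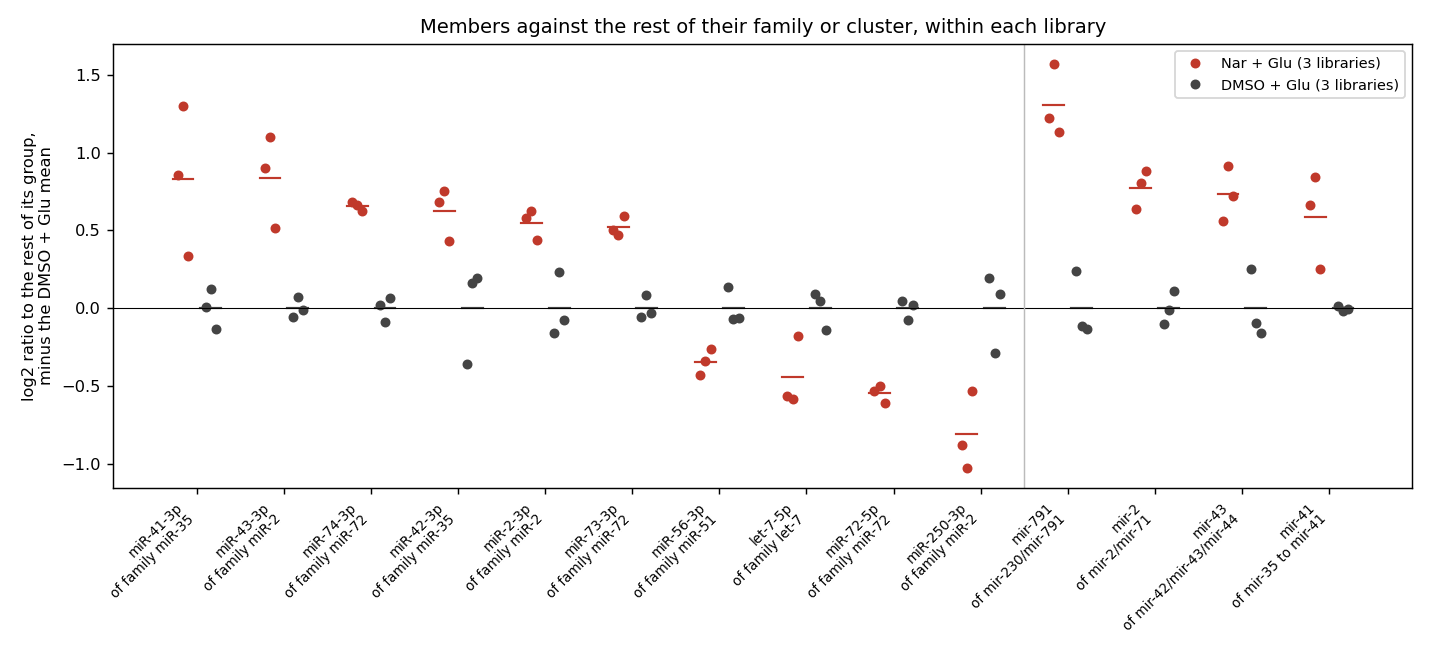
Log2 ratio of a member's reads to those of the rest of its family (left of the grey line) or cluster (right of it), less the DMSO + Glu mean, for the 10 member ratios and 4 hairpin ratios called by edgeR, with Nar + Glu points in red left of DMSO + Glu points in grey. The ratios do not depend on library scaling. Nar + Glu and DMSO + Glu points do not overlap in any column.

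Hairpins that lie close together did not always move together. On chromosome I, mir-2 (9372768 to 9372865, WBcel235, minus strand) and mir-71 (9379927 to 9380020, minus strand) both lie in introns of ppfr-1, on its strand. The ratio of mir-2 to mir-71 reads was higher in Nar + Glu worms by 0.78 ± 0.14 in log2 units (adjusted p = 0.00161 in edgeR over 38 hairpin ratios, of which 10.5% were called). In log2 units it was -6.24, -6.07 and -6.0 in Nar + Glu libraries, against -6.98, -6.89 and -6.77 in DMSO + Glu libraries, and the call was kept with any 1 library left out. miR-71-5p, which promotes lifespan in worms without a germline, had 33403, 32979 and 36164 CPM in Nar + Glu worms, against 47368, 39966 and 38129 CPM in DMSO + Glu worms, and did not pass on its own (-0.29, adjusted p = 0.108, and 0.16 with total counts alone).

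On chromosome X, mir-230 (5803892 to 5803989) and mir-791 (5809349 to 5809433), both on the plus strand between protein-coding genes, also parted. miR-230-3p had 57.1, 34.9 and 70.8 CPM in Nar + Glu worms, against 88.5, 79.4 and 93.2 CPM in DMSO + Glu worms, and miR-230-5p 45.1, 40.9 and 34 CPM, against 53.8, 63.9 and 62.9 CPM. Both arms were called lower (-0.69 and -0.59). Neither call was kept with total counts alone, where the changes were -0.25 and -0.16. Both were lost without Nar + Glu replicate 2 or DMSO + Glu replicate 3, miR-230-3p also without Nar + Glu replicate 1 or DMSO + Glu replicate 1, and miR-230-5p also without Nar + Glu replicate 3 or DMSO + Glu replicate 2 (adjusted p up to 0.133 for miR-230-3p and 0.0944 for miR-230-5p). miR-791-3p, made in carbon dioxide-sensing neurons, is scarce: it had 27, 22 and 21 reads in Nar + Glu worms, against 12, 13 and 14 reads in DMSO + Glu worms. The ratio of mir-791 to mir-230 reads was higher in Nar + Glu worms by 1.32 ± 0.22 (adjusted p = 0.00161), and this was kept with any 1 library left out. On the 12-library scale miR-791-3p lay between 5.46 and 7.40 CPM in Nar + Glu worms, against 3.48 to 4.29 CPM in DMSO + Glu, 5.87 to 6.65 CPM in Glu and 5.25 to 7.26 CPM in Control worms, so that the DMSO + Glu libraries stood below the other 3 groups.

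In the mir-42, mir-43 and mir-44 cluster on chromosome II (11889811 to 11890118, plus strand), the ratio of mir-43 to the other hairpins was higher by 0.73 ± 0.16 (adjusted p = 0.00688 in edgeR), and was lost without DMSO + Glu replicate 3 (adjusted p = 0.055). This ratio leaves out miR-44-3p, the commoner arm of mir-44, whose reads equal those of miR-45-3p, so that the other hairpins held a mean of 3810 reads beside 328.5 for mir-43, and the ratio with miR-44-3p was not tested. In the mir-35 to mir-41 cluster, the same held for mir-41, by 0.59 ± 0.15 (adjusted p = 0.0131), a call that limma did not make (adjusted p = 0.118). Of the 113 clusters and single hairpins tested as sums, 28 (24.8%) were called. Among the 24 clusters of several hairpins, 6 were called, which is near the share over all 113. The mir-230 and mir-791 sum was lower (-0.51), as were mir-48 with mir-241 (-0.29) and mir-250 with mir-61 (-0.27), of which the last 2 sums turned to 0.09 and 0.10 with total counts alone. Because sums have TMM factors of their own, their changes cannot be set directly beside those of single miRNAs. The mir-48 with mir-241 sum, for example, fell by less than any of its arms did with TMM over single miRNAs. The sums of mir-792 with mir-1821 (0.46), mir-42 to mir-44 (0.31) and mir-51 with mir-53 (0.27) were higher. The mir-42 to mir-44 sum leaves out miR-44-3p as well, and with every entry summed it turned to -0.10. Each of the 6 lost its call without at least 1 library (adjusted p up to 0.0684 for mir-230/mir-791, 0.0913 for mir-792/mir-1821, 0.134 for mir-42/mir-43/mir-44, 0.147 for mir-51/mir-53, 0.117 for mir-48/mir-241 and 0.212 for mir-250/mir-61). DMSO + Glu replicate 2 was the only such library for mir-230/mir-791.

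In the cluster of mir-48 (14364412 to 14364509 on chromosome V) and mir-241 (14366188 to 14366283), all 4 arms were called lower relative to TMM scaling. The passenger arm miR-48-3p had 27.7, 36.5 and 36.2 CPM in Nar + Glu worms, against 47.8, 47.1 and 48.6 CPM in DMSO + Glu worms, and miR-241-3p had 15.4, 15.0 and 12.5 CPM, against 16.8, 25.6 and 21.8 CPM. Both stayed below 0 with total counts alone, at -0.08 and -0.15. The call of miR-48-3p was lost with any library but Nar + Glu replicate 3 left out (adjusted p up to 0.144), and that of miR-241-3p with any but DMSO + Glu replicate 1 (adjusted p up to 0.322). The ratio of mir-241 to mir-48 did not pass (-0.38 ± 0.18, adjusted p = 0.270).

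Both arms of a hairpin could be tested for 73 hairpins, and no hairpin had its arms called in opposite directions. Both arms were called higher for mir-231 and mir-4813, and lower for mir-237, mir-241, mir-48, mir-81 and mir-230. mir-4813 overlaps an exon of idhg-1, which encodes an isocitrate dehydrogenase subunit, on the same strand, so that its reads could include pieces of that mRNA, which was not tested. For mir-231, miR-231-5p had 109, 108 and 105 CPM in Nar + Glu worms, against 75.0, 71.5 and 90.1 CPM in DMSO + Glu worms, and its call was lost without Nar + Glu replicate 1 or DMSO + Glu replicate 1 or 2 (adjusted p up to 0.0944). miR-4813-3p had 110, 125 and 106 CPM in Nar + Glu worms, against 63.2, 79.7 and 76.9 CPM in DMSO + Glu worms. miR-4813-5p had 692, 785 and 374 CPM in Nar + Glu worms, against 245, 399 and 366 CPM in DMSO + Glu worms, and its call was lost without Nar + Glu replicate 1 or DMSO + Glu replicate 1 or 3 (adjusted p up to 0.116). miR-237-3p, the passenger arm of mir-237, had 37.2, 36.0 and 35.9 CPM in Nar + Glu worms, against 52.1, 58.5 and 74.1 CPM in DMSO + Glu worms, and its call was lost without DMSO + Glu replicate 3 (adjusted p = 0.0531). For 24 hairpins only 1 arm was called. The 2 arms had the same sign for 53 hairpins and opposite signs for 20, with a Spearman correlation of 0.54 across hairpins, which share their libraries and are not independent.

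**Figure D5:**
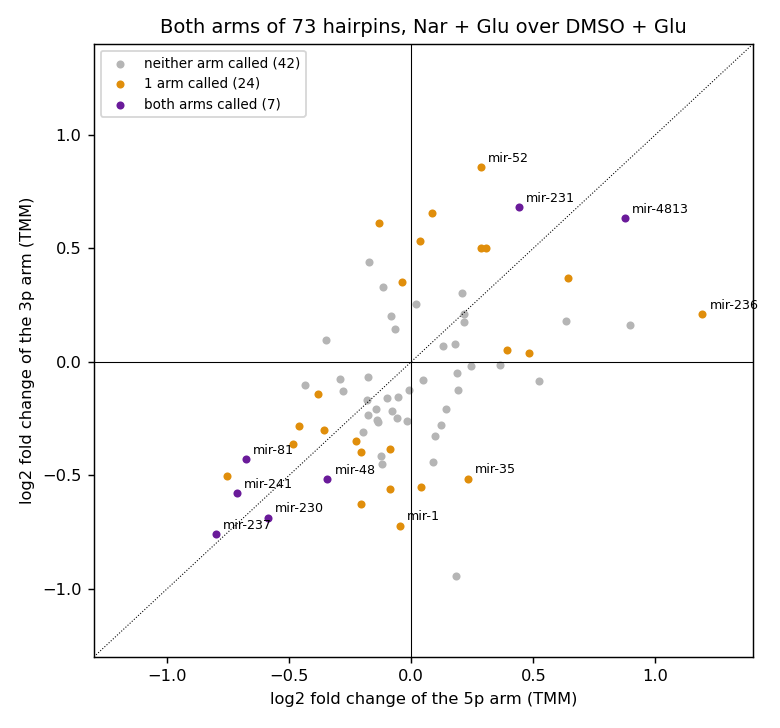
Log2 fold change of the 5p arm (x axis) and of the 3p arm (y axis) of 73 hairpins, Nar + Glu over DMSO + Glu with TMM scaling, in purple where both arms were called (7), orange where 1 was (24) and grey where neither was (42). The 7 purple points lie near the diagonal, and mir-236, mir-52, mir-1 and mir-35, whose arm ratios had some of the smallest p-values, lie away from it.

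The balance of 5p over 3p reads did not pass for any of 74 hairpins at an adjusted p of 0.05 in edgeR, and 11 (14.9%) had an unadjusted p under 0.05. limma on the log2 ratios gave 0 and 10. With Nar + Glu replicate 3 left out, 3 ratios passed, those of mir-236, mir-790 and mir-35. The 6 hairpins with the smallest p were mir-236, mir-790, mir-52, mir-1, mir-35 and mir-57, all with an adjusted p of 0.160. In each of the 6 the passenger arm took a larger part in Nar + Glu worms. The 6 were picked by their p, and not every hairpin moved this way. For mir-259, whose commoner arm is miR-259-5p, the ratio of 5p to 3p was higher by 1.12 ± 0.45 (unadjusted p = 0.0221 in edgeR). Its passenger arm was scarce, with a mean count of 10.3. The log2 ratio of miR-52-5p to miR-52-3p was 9.27, 9.09 and 9.32 in Nar + Glu worms, against 9.80, 9.93 and 9.68 in DMSO + Glu worms, a difference of -0.58 ± 0.20. miR-52-5p itself had 21361, 19542 and 24059 CPM in Nar + Glu worms, against 19363, 17108 and 16851 CPM in DMSO + Glu worms, while miR-52-3p had 34.4, 35.7 and 37.5 CPM, against 21.5, 17.4 and 20.4 CPM. Across hairpins, passenger arms together took 1.03%, 1.05% and 0.917% of the reads in Nar + Glu worms, against 0.665%, 0.864% and 0.851% in DMSO + Glu worms. These shares did not overlap (exact permutation p = 0.1, the smallest the design allows), and they move with the share of miR-1-3p given above. The median over hairpins of log2 passenger over commoner reads, which does not, was -4.92 ± 0.21 in Nar + Glu worms and -5.14 ± 0.09 in DMSO + Glu worms (SD, n = 3 each, exact permutation p = 0.3).

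By abundance, beside 9.59% higher and 11.9% lower over all tested miRNAs, the 55 most abundant miRNAs, with a mean count of 1928 or more, held 2 higher and 12 lower calls. The 54 below them, with a mean count of at least 190.5, held 12 and 6, the next 55 held 6 and 8, and the 55 scarcest held 1 and 0. The 75 passenger arms held 10 higher and 8 lower calls with a median log2 fold change of -0.02, the 90 commoner arms held 6 and 17 with a median of -0.12, and the 54 miRNAs with 1 arm measured held 5 and 1 with a median of 0.02, beside -0.06 over all miRNAs. Some hairpins had near-equal arms, such as mir-795, with mean counts of 45.5 and 44. By chromosome, the higher and lower calls were 2 and 2 of 20 miRNAs on I, 4 and 4 of 43 on II, 4 and 1 of 29 on III, 3 and 1 of 32 on IV, 1 and 5 of 21 on V and 7 and 13 of 70 on X, with 0 among the 4 tested miRNAs that have no single locus. These counts describe TMM scaling and were given no test.

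Lists of miRNAs known from single tissues were checked beside these changes, since in whole worms fewer cells of a type and less RNA per cell cannot be told apart. The muscle miRNA miR-1-3p had 301506, 296312 and 244097 CPM in Nar + Glu worms, against 498126, 448005 and 443113 CPM in DMSO + Glu worms (log2 fold change -0.72, adjusted p = 0.00215 in edgeR). None of 4 intestinal miRNAs passed, and their summed level did not overlap, lying between 2262 and 2423 CPM in Nar + Glu worms, against 1980 to 2216 CPM in DMSO + Glu worms, with miR-60-3p supplying most of it. The other arm of a listed intestinal hairpin, miR-240-5p, was called higher (0.39). That call was lost with any library but Nar + Glu replicate 3 left out (adjusted p up to 0.164 in edgeR). None of 5 neuronal miRNAs passed. The unlisted arm miR-790-3p was called higher (0.61), a call lost without Nar + Glu replicate 1 or DMSO + Glu replicate 1 (adjusted p up to 0.0651 in edgeR). The neuronal sum overlapped, at 665 to 825 CPM in Nar + Glu worms, against 771 to 876 CPM in DMSO + Glu worms, and it was led by miR-790-5p. The log2 fold changes were 0.65 for miR-124-3p, 0.49 for lsy-6-3p, 0.65 for miR-791-3p, -0.13 for miR-790-5p and -0.21 for miR-234-3p. All 5 were above 0 with total counts alone, where the median over all tested miRNAs was 0.37. The glial miRNA miR-228-5p had 5787, 6386 and 5763 CPM in Nar + Glu worms, against 6164, 6813 and 6005 CPM in DMSO + Glu worms, and overlapped. The 8 embryonic miRNAs of the miR-35 family summed to 108641 to 137737 CPM in Nar + Glu worms, against 135535 to 195062 CPM in DMSO + Glu worms, so that the groups overlapped. The part of changed tissue or embryo content in the other results was not tested.

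None of 6 tested miRNAs linked to lifespan and stress passed. The 7 listed, with the untested miR-239b-5p, summed to 45510 to 47997 CPM in Nar + Glu worms, against 51171 to 60588 CPM in DMSO + Glu worms, with miR-71-5p the most abundant, followed by miR-228-5p. This lower sum is relative to TMM scaling. With total counts alone all 6 tested members were above 0, with a median log2 fold change of 0.39 (0.16 for miR-71-5p and 0.35 for miR-228-5p). That median lay near the 0.37 of all tested miRNAs with the same scaling. miR-34-5p, which is linked to stress resistance, had 577, 529 and 526 CPM in Nar + Glu worms, against 511, 505 and 578 CPM in DMSO + Glu worms (log2 fold change 0.03, adjusted p = 0.86 in edgeR). Its passenger arm miR-34-3p was called higher at 97.7, 103 and 75.9 CPM in Nar + Glu worms, against 63.2, 66.1 and 62.6 CPM in DMSO + Glu worms (0.53, adjusted p = 0.0158), and the call was lost without Nar + Glu replicate 1 or DMSO + Glu replicate 1 or 3 (adjusted p up to 0.0756). The unlisted arm miR-239a-3p was also called higher (0.50). It lost its call without Nar + Glu replicate 1 or 2 or DMSO + Glu replicate 1 or 3 (adjusted p up to 0.186 in edgeR). Other unlisted arms of listed hairpins were not called, among them miR-71-3p (-0.08), miR-228-3p (0.20) and miR-238-5p (0.10). miR-238-3p had 2424, 2485 and 2179 CPM in Nar + Glu worms, against 3048, 2976 and 2864 CPM in DMSO + Glu worms, and stood at the threshold (-0.33, adjusted p = 0.050), turning to 0.11 with total counts alone. Of 2 miRNAs linked to nutrient state, miR-235-3p, which holds progenitor cells quiescent in starved larvae, was called lower (-0.40, adjusted p = 0.0344), lost this call with any 1 library left out (adjusted p up to 0.274), and turned to 0.05 with total counts alone. The other, miR-80-3p, overlapped between groups (-0.13).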

How the data were processed

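Small RNA was sequenced from 12 libraries, 3 per group. Per the labels and the study's methods, the authors filtered reads with the Solexa CHASTITY filter, trimmed adapters with Cutadapt 1.14 and quantified miRNAs with mirdeep2 on WBcel235. The labels also name a poly(A) enrichment step. The authors deposited raw read counts per mature miRNA, 268 entries with 263 names. For the 5 repeated names the entry with the higher total was used, and entries with equal counts in all libraries were summed once. No molecular identifiers are stated, so counts are not independent molecules.

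The 6 libraries (2640879 to 3849726 reads) were fitted with edgeR 4.0.16 in R 4.3.3 (TMM, filterByExpr with a count minimum of 10, quasi-likelihood test, two-sided, Benjamini-Hochberg over all features tested). 44 miRNAs fell below the filter. For families and clusters, the filter and TMM were applied anew to the summed counts. limma 3.58.1 and DESeq2 1.42.0 were alternatives. Replicates differed beyond sampling noise, and unevenly. Chi-square per degree of freedom was 22.3 between Nar + Glu replicates 1 and 2, and 226 and 264 between these and replicate 3. Between DMSO + Glu libraries it was 71.5 to 217. Families were grouped by name from general knowledge, since no mature sequences were used here, and clusters were hairpins on a strand at most 10000 bases apart. Arm ratios, and the family and cluster ratios added after seeing the data, used 1 edgeR model with library terms. Single values had exact permutation tests over libraries. Members and lists were chosen with earlier results of these data known. Named miRNAs were the 10 largest called changes each way, the 5 most abundant, members of families and clusters, both arms of the 6 hairpins with the smallest arm-ratio p, and role-list members. Others, such as miR-54-5p and miR-34-3p, were chosen after their values were seen. On data simulated from these libraries with a log2 change of 1, 39 of 44 changed miRNAs of 216 tested were recovered, with 0 false calls. For families and single miRNAs, 29 of 34 of 176 tested were recovered, with 1 false call. The changes were planted at random, equally often higher and lower, and most calls here were smaller than 1. The simulation therefore does not show how smaller changes, or an uneven shift such as that of miR-1-3p, are handled.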

Additional observations from a re-analysis of the deposited data

How the results depend on the processing

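Scaling decided the direction of many small changes. The calls numbered 47 over miRNAs, and 91 with total counts alone, 24 with a mean count of at least 100, 25 with all 12 libraries in 1 fit and 27 with the replicate block. Higher calls (21) became 89 with total counts alone, 50 with total counts without miR-1-3p and 11 with the block. Lower calls (26) became 16 with DESeq2 size factors, 2 with total counts alone, 13 with no filter, 8 with a mean of at least 100, 8 with all 12 libraries, 16 with the block, 12 without miR-1-3p and 2 with total counts without miR-1-3p. The study's criteria (29) gave 65 with total counts and 19 with a mean of at least 100. Families (33) gave 73 with total counts and 20 with all 12 libraries, higher ones (19) 72 with total counts and 38 without miR-1-3p in those totals, and lower ones (14) 1, 9 with a mean of at least 100, 7 with all 12 libraries and 1 without miR-1-3p in the totals. Clusters (28) gave 52 with total counts, 15 with all 12 libraries and 9 with the block. Higher clusters (16) gave 50, 10 and 3, and 30 with totals without miR-1-3p. Lower clusters (12) gave 2, 5 and 6, with 6 for no filter, 7 for a mean of at least 100, 2 for totals without miR-1-3p and 7 with every entry summed. Member ratios (10) fell to 6 in limma, and hairpin ratios (4) to 1 in limma with the replicate block.

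Leaving out 1 library gave 17 to 46 miRNA calls (17 without DMSO + Glu replicate 3), 11 to 26 higher and 5 to 20 lower, and 25 to 33 by the study's criteria. It gave 16 to 45 families (9 to 20 higher, 7 to 25 lower), 8 to 38 clusters (4 to 27 higher, 4 to 11 lower, 8 without DMSO + Glu replicate 2), 0 to 3 adjusted and 6 to 18 unadjusted arm ratios, 3 to 16 member ratios and 3 to 6 hairpin ratios. The cause was not tested.

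With total counts alone the sign turned for miR-228-5p (0.35), miR-235-3p (0.048), miR-238-3p (0.11), miR-37-3p (0.014), miR-47-3p (0.054), miR-48-5p (0.093), miR-58a-3p (0.040), miR-61-3p (0.093), miR-65-5p (0.060), miR-70-3p (0.18), miR-71-5p (0.16), miR-72-5p (0.084), miR-788-3p (0.033), miR-81-3p (0.0067) and miR-84-5p (0.23). It turned for the bantam (0.089), let-7 (0.082), miR-238 (0.12), miR-35 (0.044), miR-44 (0.19), miR-46 (0.17), miR-64 (0.27) and miR-72 (0.15) families and the mir-250/mir-61 (0.10) and mir-48/mir-241 (0.088) clusters. With totals without miR-1-3p it turned for miR-228-5p (0.19), miR-70-3p (0.023), miR-84-5p (0.066) and the miR-1 (0.37), miR-44 (0.037), miR-46 (0.010) and miR-64 (0.095) families. miR-228-5p was 0.024 with a mean of at least 100 and -0.11 to 0.043 with a library left out. The miR-50 family was -0.023 with all 12 libraries, -0.019 with every entry summed, and -0.079 to 0.091 with a library left out. The miR-1 family was 0.14 without miR-1-3p, and mir-42/mir-43/mir-44 was -0.10 with every entry summed.

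Replicate numbers did not pair the libraries: deviations of same-numbered libraries correlated at -0.17, 0.34 and -0.11. Families by bases 2 to 7 were not run. With 3 libraries a group, no exact permutation test of a single value could go below p = 0.1, and changes of scarce miRNAs were limited by depth.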
